A study of Mus musculus with 8 samples.

Results

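The genes described here are the 5 lysyl oxidases (Lox, Loxl1, Loxl2, Loxl3 and Loxl4) and 5 genes of the elastic fibre (elastin, Eln; fibrillin-1, Fbn1; and the fibulins Fbln2, Fbln5 and Efemp2), taken by name from the 24421 genes in the files. They were followed over 8 RNA sequencing libraries of MCa-P1362, a cell line grown from a mammary tumour that arose spontaneously in a female Balb/c mouse. The line was split by a cell sorter for EpCAM, which epithelial cells carry on their surface, and the labels give 4 groups of 2 libraries each: monoculture EpCAM+, monoculture EpCAM-, coculture EpCAM+ and coculture EpCAM-. All cells were grown in high glucose medium with fetal bovine serum, and no added gene or drug is named. Some sorted cells were frozen at once and others only after a passage, but the labels do not tie either to the words monoculture and coculture. All groups come from a single line.

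Lysyl oxidases are secreted copper enzymes that oxidise lysine side chains in collagen and elastin, after which the chains crosslink. Lox and Loxl1 are made with pro-regions that proteases remove, while Loxl2, Loxl3 and Loxl4 carry scavenger receptor cysteine-rich domains in front of the catalytic domain. Elastic fibres form when elastin is laid onto microfibrils of fibrillin; in mice, fibulin-5 (Fbln5) and fibulin-4 (Efemp2) are needed for that assembly and bring elastin together with Loxl1 and Lox. In most tissues these genes belong to fibroblasts and smooth muscle cells.

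Levels are FPKM, read fragments scaled by transcript length and library depth, which allows a comparison between genes. A library held a summed FPKM of 387489 to 414612, with 10634 to 11119 genes at 1 FPKM or above. Low values put the depths at 0.912 to 1.16 of that of monoculture EpCAM+ replicate 1; the depth in reads is unknown. The sort labels matched the 12 epithelial markers checked, among them Epcam, Krt8 and Cdh1, whose summed level lay between 9744 and 10659 FPKM in the EpCAM+ libraries and between 19.4 and 34.8 FPKM in the EpCAM- libraries. The 15 fibroblast markers, among them Col1a1, Bgn and Pdgfrb, summed to 37.3 to 37.6 FPKM in monoculture EpCAM+, 11474 to 11482 in monoculture EpCAM-, 211 to 215 in coculture EpCAM+ and 11535 to 11579 in coculture EpCAM-; Lum, at 0 in both EpCAM+ groups, was the 1 marker that fell below the limit for testing. In bulk RNA, fewer cells of a type and less RNA per cell cannot be told apart. The summed endothelial markers stayed at or below 1.25 FPKM and the leukocyte markers at or below 1.37 FPKM in each library. Whether the 2 libraries of a group came from separate cultures is not stated, so p-values rest on library spread that could be technical alone.

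Levels below are FPKM, given per library or as mean ± SD (n = 2). Changes are log2 fold changes of FPKM + 1 from limma over all 8 libraries, with p-values adjusted by Benjamini-Hochberg over the 12012 genes that reached 1 FPKM in at least 2 libraries; calls needed an adjusted p below 0.05. With 2 libraries on each side, the smallest p of an exact permutation test is 0.333. Of the 10 genes, 9 were tested. The EpCAM- libraries were enough for each of the 9 to reach the limit, so counts over them between the fractions are descriptions. Across the 32 pairs of gene and group at 1 FPKM or more, the coefficient of variation between the 2 libraries ran from 0.0881% to 8.51%, with a median of 1.47%.

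Promoter sequence was at hand for 5 of the 10 genes, in 8 windows, and 2 of these windows hold no annotated exon. They belong to Fbln5 and Efemp2 and are shown because they hold no annotated exon. The EpCAM+ level of these genes was also the largest share of the EpCAM- level in both cultures, as described further on. That was not the ground for showing them. Both come from RefSeq and are the 250 bases before an annotated start in GRCm38.p6, read 5′ to 3′ on the gene's strand: chr12:101819120-101819369, minus strand, for Fbln5 and chr19:5473696-5473945, plus strand, for Efemp2. Capitals mark a match to the letters searched.
Fbln5: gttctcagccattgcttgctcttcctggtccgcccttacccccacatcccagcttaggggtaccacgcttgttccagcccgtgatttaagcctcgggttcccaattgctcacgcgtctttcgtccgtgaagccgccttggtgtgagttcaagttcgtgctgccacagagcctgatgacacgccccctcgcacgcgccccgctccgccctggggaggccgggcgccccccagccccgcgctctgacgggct
Efemp2: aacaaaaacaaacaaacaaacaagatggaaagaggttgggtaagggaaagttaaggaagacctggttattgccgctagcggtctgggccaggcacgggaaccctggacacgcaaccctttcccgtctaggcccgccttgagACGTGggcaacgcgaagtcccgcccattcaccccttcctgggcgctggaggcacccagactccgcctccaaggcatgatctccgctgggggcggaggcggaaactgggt
The search covered both strands, and shares are of all 32851 windows of this length. The TATA box was searched as TATAAA, held by 12.4% of windows. The AP-1 site was searched as TGANTCA, held by 6.75%. The core of the hypoxia response element, ACGTG, is held by 16.6%, and the TEAD site, GGAATG, by 12.6%. The Efemp2 window held ACGTG once, 109 bases before the start, which was the 1 match over the 8 windows. A match is a run of letters, not a bound site. The windows were 65.2% (Fbln5) and 59.2% (Efemp2) G or C.

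The genes lie on 8 chromosomes of the mouse genome (mm10; positions from GENCODE). Lox is on chromosome 18, Loxl1 at chr9:58287738-58313186, Loxl2 at chr14:69609068-69695834, Loxl3 at chr6:83034173-83052562 and Loxl4 at chr19:42593982-42612813. Eln is at chr5:134702593-134747323, Fbn1 at chr2:125300594-125507993, Fbln2 at chr6:91212455-91272540, Fbln5 at chr12:101746565-101819055 and Efemp2 at chr19:5473954-5482517. Exons of Loxl3 overlap those of Htra2, and exons of Efemp2 those of Mus81, on the other strand. Whether the counting used strand is not given in the sources used here, so reads in the shared stretches cannot be assigned. Mus81 stood at 8.38 ± 0.265 in monoculture EpCAM+ and 7.96 ± 0.281 in monoculture EpCAM-, and at 10.7 ± 0.0751 in coculture EpCAM+ and 7.82 ± 0.667 in coculture EpCAM-. Htra2 stood at 28.7 ± 1.27 in monoculture EpCAM+ and 47.0 ± 1.97 in monoculture EpCAM-, and at 25.2 ± 0.446 in coculture EpCAM+ and 57.1 ± 1.34 in coculture EpCAM-. Lox, Loxl2, Eln and Fbn1 also overlap an exon of another annotated gene on the other strand.

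**Figure D1:**
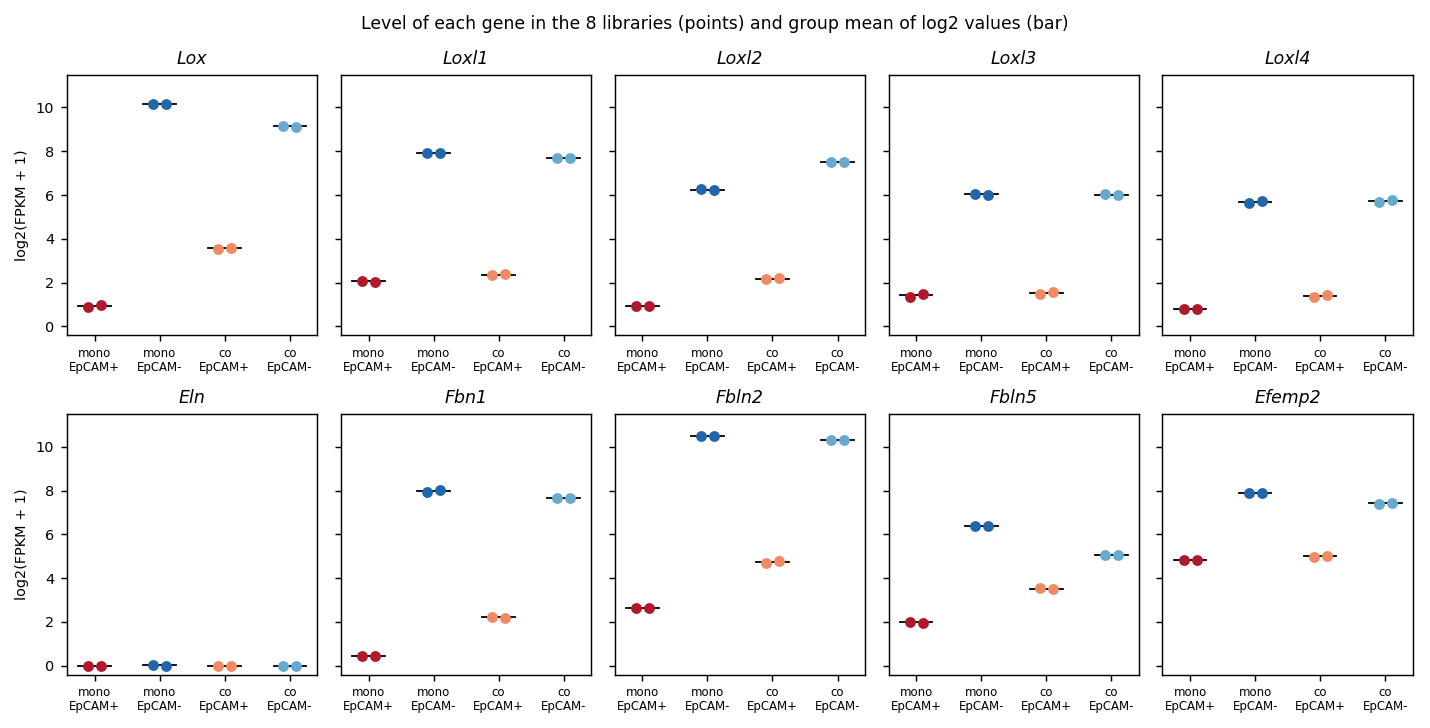
Levels of the 10 genes, as log2(FPKM + 1), in the 8 libraries (points) with the mean of each group's log2 values (bar); mono and co are monoculture and coculture. For each gene but Eln, all 4 EpCAM- libraries lie above all 4 EpCAM+ libraries, which was not counted over all genes. Eln is at or near 0 throughout.

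Elastin itself was all but missing. Eln, which encodes the elastic core of the fibre, was listed at 0 in the 4 EpCAM+ libraries, at 0.0299 and 0.007 FPKM in monoculture EpCAM- and at 0.0083 and 0 in coculture EpCAM-. It was not tested, and no fold is given. The genes that crosslink, scaffold and assemble elastin were measured in cells in which the elastin gene itself was at or near 0.

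The comparison of EpCAM+ with EpCAM- cells within monoculture asks how far this matrix programme follows the sort. The 9 tested genes were lower in EpCAM+ cells, each by at least 2-fold; over all genes tested, 12.6% were called lower and 15.5% higher at that size, and 32.4% lower and 55.4% higher at any size. The median over the 9 was -5.32, against 0.23 over all genes.
Lox, the founding member of the family, stood at 0.874 and 0.951 FPKM in monoculture EpCAM+, against 1137 and 1157 FPKM in monoculture EpCAM-. It ranked 19th of all genes in monoculture EpCAM-, with a log2 fold change of -9.23 between the fractions (SE 0.026, adjusted p = 1.33e-13, limma). Loxl1, the family member tied to elastin in mice, stood at 3.23 and 3.09 in EpCAM+ and 242 and 237 in EpCAM- of monoculture (log2 fold change -5.86, SE 0.033). Loxl2, which acts on basement membrane collagen, was at 0.894 and 0.932 in EpCAM+ and 75.6 and 74.8 in EpCAM- (-5.32). Loxl3 and Loxl4, the least abundant of the family in EpCAM- cells, changed by -4.61 and -4.90. Loxl3 was at 1.58 and 1.78 in EpCAM+ and 65.4 and 63.7 in EpCAM-, and Loxl4 at 0.712 and 0.724 in EpCAM+ and 49.5 and 51.4 in EpCAM-. The libraries of the fractions were far apart for each enzyme, and Lox showed the largest change of the 5.
Among the fibre genes, Fbln2, a fibulin of microfibrils and basement membranes, was at 5.31 and 5.26 FPKM in monoculture EpCAM+ and at 1456 and 1454 FPKM in monoculture EpCAM- (-7.86, SE 0.022, adjusted p = 1.33e-13), where it ranked 13th of all genes. Fbn1, the microfibril scaffold, was at 0.365 and 0.366 in EpCAM+ and 240 and 261 in EpCAM- (-7.52). The fractions did not overlap for either gene. Fbln5 was at 2.99 and 2.92 in EpCAM+ and 83.0 and 81.1 in EpCAM- (-4.39). Efemp2 changed least of the 9, with 27.4 and 27.8 in EpCAM+ and 237.6 and 237.9 in EpCAM- (-3.06, SE 0.024, adjusted p = 8.42e-12). With 27.6 ± 0.246 FPKM it was the most abundant of the 10 genes in monoculture EpCAM+, followed by Fbln2, Loxl1 and Fbln5.

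The same comparison within coculture asks whether the fractions stand apart alike there. The 9 tested genes were again lower in EpCAM+ by at least 2-fold, beside 10.1% of all genes tested called lower and 16.5% higher at that size, and 28% lower and 59.2% higher at any size, and their median was -5.31 against 0.26 over all genes. For 6 of them the log2 fold change lay between -5.57 and -4.50.
Lox was at 10.8 and 10.8 FPKM in coculture EpCAM+, against 564 and 558 FPKM in coculture EpCAM- (-5.57, SE 0.026, adjusted p = 1.69e-12). Loxl1 was at 4.02 and 4.29 in EpCAM+ and 205 and 203 in EpCAM- (-5.31), and Loxl2 at 3.49 and 3.59 in EpCAM+ and 183 and 184 in EpCAM- (-5.34). Loxl3 (-4.50) and Loxl4 (-4.33) again had the smallest changes among the enzymes. Loxl3 was at 1.77 and 1.95 in EpCAM+ and 64.2 and 63.2 in EpCAM-, and Loxl4 at 1.54 and 1.70 in EpCAM+ and 50.4 and 52.8 in EpCAM-.
Fbln2 was at 25.1 and 26.1 FPKM in EpCAM+, against 1265 and 1257 FPKM in EpCAM- (-5.57), and Fbn1 at 3.75 and 3.59 in EpCAM+ and 204 and 203 in EpCAM- (-5.45). Efemp2 was at 30.2 and 31.3 in EpCAM+ and 168 and 172 in EpCAM- (-2.43, SE 0.024, adjusted p = 3.19e-11). Fbln5 stood closest between the fractions, with 10.6 and 10.5 FPKM in coculture EpCAM+ and 32.0 and 32.6 FPKM in coculture EpCAM- (-1.53, SE 0.03, adjusted p = 8.43e-10). The libraries of the fractions did not overlap for any of the 9. How many of all genes tested also showed no overlap was not counted.
The share of higher calls over all genes moved with the scaling, from 63.1% in monoculture and 67.9% in coculture as deposited to 50.8% and 50.2% when libraries were scaled by the median of ratios. The median change over all genes was then 0.02 in monoculture and 0.00 in coculture, below the 0.23 and 0.26 as deposited; the 9 genes kept their direction under each scaling tried.

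The EpCAM+ level of a gene as a percentage of its EpCAM- mean in the same culture separates the genes. In coculture, 13 of the 14 fibroblast markers at 5 FPKM or more in EpCAM- stood at 1.38% to 2.51%, with a median of 1.68%; the exception was Postn, at 14.2%. Of the genes described here, Lox (1.93%), Loxl2 (1.93%), Fbn1 (1.80%), Fbln2 (2.03%) and Loxl1 (2.04%) stood within that range. Loxl3 (2.92%) and Loxl4 (3.15%) were above it, and Efemp2 (18.1%) and Fbln5 (32.5%) far above it.
In monoculture the same 13 markers stood at 0.072% to 0.498%, with a median of 0.126%, and Postn at 23.0%. There Lox (0.0796%), Fbn1 (0.146%) and Fbln2 (0.363%) were within the range of the markers. Loxl2 (1.21%), Loxl1 (1.32%), Loxl4 (1.42%), Loxl3 (2.60%), Fbln5 (3.60%) and Efemp2 (11.6%) were above it.
The part that this shared percentage has in the EpCAM+ levels was not tested. A percentage of each gene's EpCAM- mean was then subtracted, with values below 0 set to 0. It was the median over all 15 fibroblast markers, 1.72% and 1.70% in the coculture libraries and 0.116% and 0.127% in the monoculture libraries. Lox was left at 1.11 and 1.34 FPKM in coculture EpCAM+ and at 0 in both monoculture EpCAM+ libraries. Fbln5 was left at 10.0 and 9.91 FPKM in coculture EpCAM+ and 2.90 and 2.82 in monoculture EpCAM+, and Efemp2 at 27.3 and 28.5 in coculture and 27.2 and 27.5 in monoculture.

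**Figure D2:**
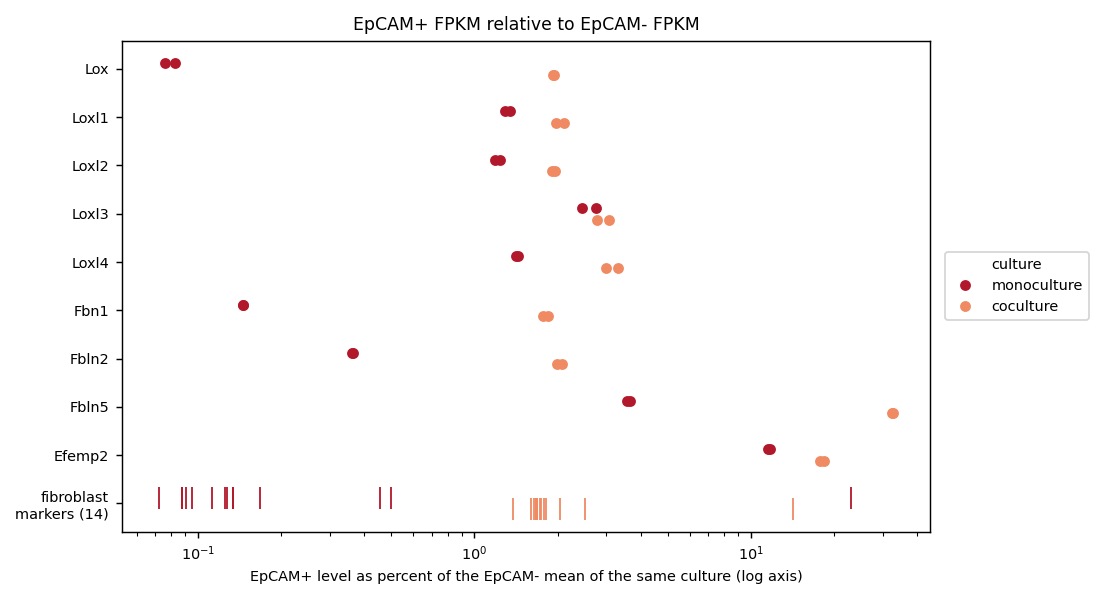
EpCAM+ level of each gene as a percentage of the EpCAM- mean of the same culture (log axis), 1 point per EpCAM+ library, with the 14 fibroblast markers as ticks in the bottom row. In coculture 5 of 9 genes lie within the range of 13 markers, 1.38% to 2.51%, while Efemp2 and Fbln5 lie above 10%.

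The make-up of the lysyl oxidase family differed between the groups. The FPKM of the 5 enzymes summed to 7.38 ± 0.132 in monoculture EpCAM+ and 1577 ± 10.2 in monoculture EpCAM-, and to 22.0 ± 0.564 in coculture EpCAM+ and 1064 ± 4.33 in coculture EpCAM-. In monoculture EpCAM+ the sum was led by Loxl1 with 42.8% ± 2.13, followed by Loxl3 with 22.8% ± 1.53, and Lox and Loxl2 made up 12.4% each. The shares in that group rest on low means, from 0.718 FPKM for Loxl4 to 3.16 for Loxl1. Reads in the exons that Loxl3 shares with Htra2, at 28.7 FPKM there, cannot be assigned. In monoculture EpCAM- it was Lox that led, with 72.7% ± 0.419 of the sum, followed by Loxl1 with 15.2% ± 0.314, while Loxl2 made up 4.77% ± 0.0659.
In coculture, Lox led in both fractions. Lox was 49.2% ± 0.964 of the sum in EpCAM+ and 52.7% ± 0.191 in EpCAM-, Loxl1 18.9% ± 0.359 in EpCAM+ and 19.2% ± 0.0808 in EpCAM-, and Loxl2 16.1% ± 0.104 in EpCAM+ and 17.2% ± 0.128 in EpCAM-. Loxl3 was 8.45% ± 0.382 in EpCAM+ and 5.99% ± 0.0395 in EpCAM-, and Loxl4 7.38% ± 0.328 in EpCAM+ and 4.85% ± 0.183 in EpCAM-. The ratio of Lox to Loxl2 was 3.08 and 3.03 in coculture EpCAM+ and 3.08 and 3.04 in coculture EpCAM-. In monoculture it was 0.977 and 1.02 in EpCAM+ and 15.0 and 15.5 in EpCAM-. These are shares and ratios of FPKM and were not tested.

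**Figure D3:**
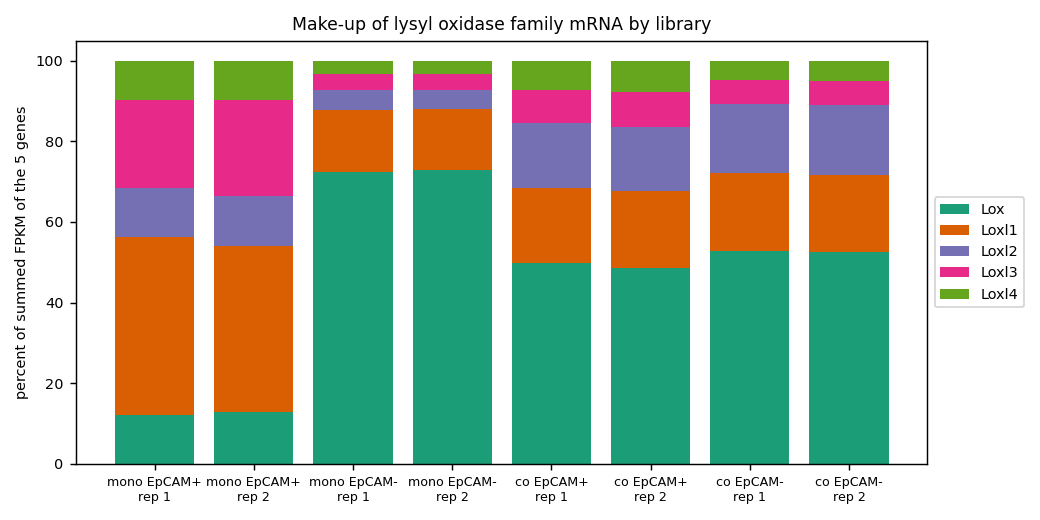
Percentage of the summed FPKM of Lox, Loxl1, Loxl2, Loxl3 and Loxl4 that each enzyme makes up in each of the 8 libraries; mono and co are monoculture and coculture. Loxl1 leads in monoculture EpCAM+ at 42.8%, Lox leads in monoculture EpCAM- at 72.7%, and Lox leads in coculture at 49.2% in EpCAM+ and 52.7% in EpCAM-.

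The comparison of monoculture with coculture in EpCAM- cells asks how the fraction that carries these genes differs between the culture conditions. The enzymes went in different directions. Of the 9 tested genes 6 were higher and 1 lower in monoculture, beside 32.4% and 30.3% of all genes; at 2-fold or more 2 were higher and 1 lower, beside 2.56% and 1.96%.
Lox rose in monoculture, with 1137 and 1157 FPKM, against 564 and 558 FPKM in coculture (log2 fold change 1.03, SE 0.026, adjusted p = 3.94e-08, limma). Loxl2 fell, with 75.6 and 74.8 FPKM in monoculture EpCAM- and 183 and 184 FPKM in coculture EpCAM- (-1.27, SE 0.029, adjusted p = 2.47e-08). Loxl1 rose slightly (0.23, SE 0.033, adjusted p = 4.88e-04). Loxl3 and Loxl4 did not pass: Loxl3 was at 64.6 ± 1.22 in monoculture and 63.7 ± 0.68 in coculture (0.02, SE 0.049, adjusted p = 0.77), and Loxl4 at 50.5 ± 1.35 in monoculture and 51.6 ± 1.74 in coculture (-0.03, SE 0.045, adjusted p = 0.575). For both, the libraries of the cultures overlapped.
The 4 tested fibre genes rose in monoculture EpCAM-. Fbln5 rose most of the 9, with 83.0 and 81.1 FPKM in monoculture and 32.0 and 32.6 FPKM in coculture (1.32, SE 0.03, adjusted p = 2.38e-08). Efemp2 was at 238 ± 0.216 in monoculture and 170 ± 2.58 in coculture (0.48, adjusted p = 1.56e-06), Fbn1 at 250 ± 14.9 in monoculture and 204 ± 0.689 in coculture (0.30, adjusted p = 4.42e-04), and Fbln2 at 1455 ± 1.28 in monoculture and 1261 ± 5.41 in coculture (0.21, adjusted p = 9.37e-05). Of the 7 smooth muscle markers, 5 were tested and all 5 rose in the same comparison. Myh11 (0.464 FPKM in monoculture EpCAM-, 0.0717 in coculture EpCAM-) and Des (0.0446 and 0.0121) were too low to test. The markers summed to 2738 to 2821 FPKM in monoculture EpCAM- and 1833 to 1847 in coculture EpCAM-. Acta2 alone was at 2023 ± 27.8 and 1419 ± 8.77. Of 14 tested fibroblast markers, 7 were higher and 4 lower in monoculture EpCAM-. The part of these markers in the result was not tested.
In order of level, Fbln2 and Lox led in both cultures. Fbn1, Loxl1 and Efemp2 followed in monoculture EpCAM-, where neighbours among these 3 overlapped between libraries, and Loxl1, Fbn1, Loxl2 and Efemp2 followed in coculture EpCAM-, where Loxl1 and Fbn1 overlapped. Loxl2 stood 7th in monoculture and 5th in coculture, and Fbln5 6th in monoculture and 9th in coculture.

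The comparison of monoculture with coculture in EpCAM+ cells asks the same of the epithelial fraction. Of the 9 tested genes 8 were lower in monoculture, beside 34.9% of all genes, and 5 of them by at least 2-fold, beside 1.67% of all genes. None was higher, beside 16.4% of all genes at any size and 0.266% at 2-fold or more. As a share of calls over all genes, higher ones were 32.0% as deposited, 46.3% by the median of ratios and 54.7% under quantile normalization.
Lox fell most, with 0.874 and 0.951 FPKM in monoculture and 10.8 and 10.8 FPKM in coculture (-2.63, SE 0.026, adjusted p = 9.50e-10). Fbln2 was at 5.31 and 5.26 in monoculture against 25.1 and 26.1 in coculture (-2.08), and Fbn1 at 0.365 and 0.366 in monoculture against 3.75 and 3.59 in coculture (-1.77). Fbln5 was at 2.99 and 2.92 in monoculture against 10.6 and 10.5 in coculture (-1.54, adjusted p = 3.07e-08), and Loxl2 at 0.894 and 0.932 in monoculture against 3.49 and 3.59 in coculture (-1.25). The libraries of the cultures did not overlap for any of these 5, a count that was not made over all genes. Smaller falls were those of Loxl4 (-0.61), Loxl1 (-0.31) and Efemp2 (-0.15, adjusted p = 0.00164, limma). The pseudocount of 1 shrinks the changes of genes near 1 FPKM. As ratios of mean FPKM, coculture over monoculture, Lox differed 11.8-fold, Fbn1 10.1-fold, Fbln2 4.85-fold and Loxl4 2.26-fold. Loxl4 was at 0.718 ± 0.00842 in monoculture and 1.62 ± 0.114 in coculture, without overlap. Loxl3 did not pass (-0.09, SE 0.049, adjusted p = 0.15), and its libraries overlapped.
In the same comparison 13 of 14 tested fibroblast markers fell, 12 of them by at least 2-fold. Once the median marker percentage of EpCAM- levels was subtracted, Loxl1 (1.22), Loxl2 (0.37) and Loxl3 (0.56) were higher in monoculture. The falls of Loxl4, Fbln2 and Efemp2 no longer passed, while Lox (-1.15), Fbn1 (-0.17) and Fbln5 (-1.51) were still lower. Lox was then at 0 in monoculture EpCAM+, and Fbn1 at 0.0753 and 0.0486 FPKM there against 0.249 and 0.142 in coculture EpCAM+. In coculture the percentages of Lox, Loxl1, Loxl2, Fbn1 and Fbln2 lay within the range of single markers. What was left of these genes therefore depends on the percentage taken, and no other was tried.

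**Figure D4:**
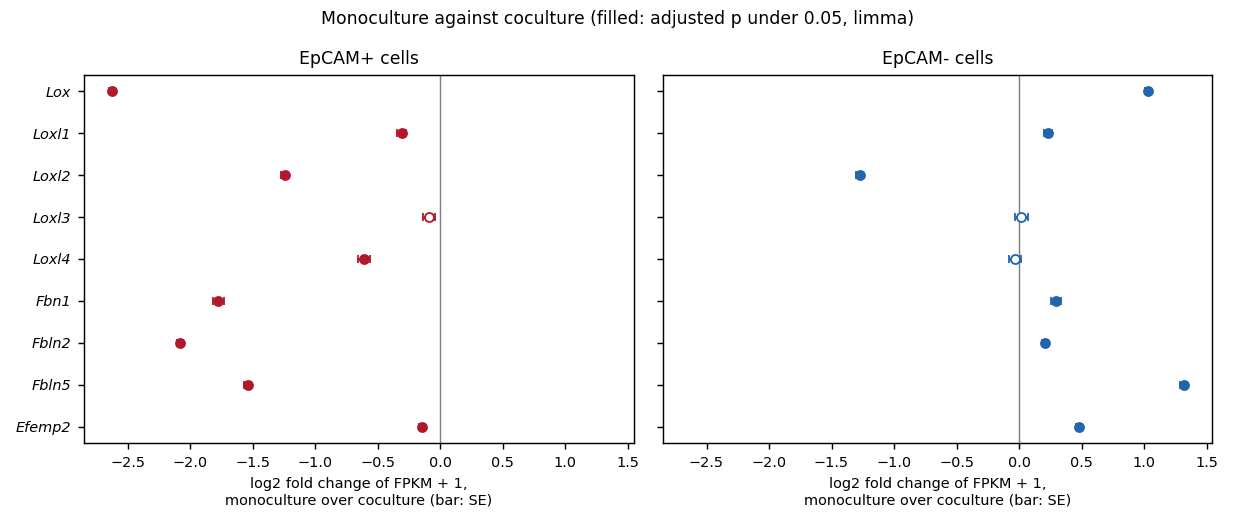
Log2 fold change of FPKM + 1, monoculture over coculture, with its SE for the 9 tested genes in EpCAM+ cells (left) and EpCAM- cells (right); filled points passed an adjusted p of 0.05 in limma. In EpCAM- cells Lox and Fbln5 lie above 1 and Loxl2 below -1; in EpCAM+ cells every point lies below 0.

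The interaction, the log2 fold change of monoculture over coculture in EpCAM+ cells minus that in EpCAM- cells, tests whether the cultures differ alike in the fractions. It was called negative for 7 of the 9 genes, beside 39.2% of all genes, and at -1 or below for 4, beside 5.66%. Over all genes, positive calls were 39.9% as deposited and 53.4% under quantile normalization. Lox differed most (-3.66, SE 0.036, adjusted p = 1.33e-09), followed by Fbln5 (-2.86, SE 0.042, adjusted p = 5.26e-09), Fbln2 (-2.29) and Fbn1 (-2.07). None was called positive, beside 26% of all genes at any size and 2.43% at 1 or more. Lox and Fbln5 moved in opposite directions in the fractions, lower in monoculture EpCAM+ and higher in monoculture EpCAM-. Loxl2 fell in both, by 1.25 in EpCAM+ and by 1.27 in EpCAM- on the log2 scale, with an interaction of 0.03 (SE 0.041, adjusted p = 0.575). As ratios of mean FPKM, coculture over monoculture, Loxl2 differed more in EpCAM+ cells (3.87-fold) than in EpCAM- cells (2.44-fold). The Loxl2 interaction turned to -0.56 with a pseudocount of 0.1 and to 1.65 after the subtraction, past the threshold in both.

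Genes were also compared by pattern, as the root mean square difference of log2(FPKM + 1) over the 8 libraries after centring each gene on its own mean; these values describe likeness and were not tested. Among the 9 tested genes, Fbn1 and Fbln2 were the closest pair (0.16), then Loxl3 and Loxl4 (0.19), and the widest apart were Lox and Efemp2 (2.50). Over all tested genes at 5 FPKM or more in some group, Lox was nearest to Acta2, the smooth muscle actin (0.19), Bgn and Fstl1. Genes near Loxl2 were Lrrc32, which binds latent TGF-beta (0.13), and Medag (0.26). Loxl1 was nearest to Tpm2, Grb10 and Epb4.1l3, Loxl3 to Clmp, Pitx1 and Gpr176, and Loxl4 to Pitx1, Myh10 and Twist1, a mesenchymal transcription factor. Fbn1 was nearest to Fbln2, Pcolce and Ppic, and Fbln2 to Pcolce, Fbn1 and Fstl1. Genes near Fbln5 were Vcam1, an adhesion molecule (0.32), and Wisp2 (0.38). Efemp2 was nearest to Fkbp9 (0.06), Shc2 and Dlx2. The pseudocount of 1 compresses ratios of low genes, so nearness here does not mean a like ratio of FPKM. In monoculture, Shc2 was at 0.0097 in EpCAM+ and 6.37 in EpCAM-, and Dlx2 at 0.0122 and 7.97. Efemp2 was there at 27.6 and 238. Grb10, Epb4.1l3, Clmp, Pitx1 and Gpr176 too had means below 1 FPKM in both EpCAM+ groups.

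Other genes of the pathway were taken as 5 lists. Of 23 genes of microfibril and elastic fibre assembly, 17 were tested; in EpCAM+ against EpCAM- 5 were higher and 11 lower in monoculture, and 6 higher and 11 lower in coculture, beside the 55.4% higher and 32.4% lower, and 59.2% higher and 28% lower, of all genes. Their medians were -1.26 and -1.14. Emilin2 (-6.14), of the elastin and microfibril interface, Mfap5 (-6.13), a glycoprotein of microfibrils, Ltbp2 (-5.99) and Fbln7 (-5.65) had the largest changes in monoculture. Mfap5 was at 0.0487 ± 0.0689 in monoculture EpCAM+ and 72.5 ± 1.64 in monoculture EpCAM-. Ltbp1 and Ltbp3, which tether latent TGF-beta to microfibrils, were present in all groups: Ltbp3 was at 153 ± 0.66 in EpCAM+ and 105 ± 1.20 in EpCAM- of monoculture, and at 153 ± 1.47 in EpCAM+ and 121 ± 0.813 in EpCAM- of coculture. Mfap4 was listed at 0 in all libraries, and Mfap2 and Emilin3 stayed below 1 FPKM. In EpCAM- cells of monoculture against coculture 9 of the 17 were higher and 5 lower, beside 32.4% and 30.3% of all genes, with Adamtsl3 (1.76), Emilin2 (1.60) and Adamts10 (0.69) higher and Adamts6 (-0.83) lower. In EpCAM+ cells 2 were higher and 10 lower, beside 16.4% and 34.9% of all genes, among the lower Adamtsl3 (-0.49) and Adamtsl4 (-0.42).
Of 10 genes that process the pro-enzymes and procollagens, 9 were tested. Bmp1, the protease that activates pro-lysyl oxidase, was expressed in every group, at 97.8 ± 0.418 in EpCAM+ and 119 ± 0.0485 in EpCAM- of monoculture, and at 92.8 ± 1.92 in EpCAM+ and 159 ± 1.61 in EpCAM- of coculture. In EpCAM+ against EpCAM- 4 of the 9 were higher and 5 lower in monoculture, and 2 higher and 7 lower in coculture, beside 55.4% higher and 32.4% lower of all genes in monoculture and 59.2% and 28% in coculture. Pcolce, an enhancer of procollagen cleavage, was lower in EpCAM+ (-7.94 in monoculture, -5.57 in coculture), as was Postn, a matricellular scaffold for Bmp1 (-2.07 and -2.75). Between the cultures 4 were higher and 2 lower in monoculture EpCAM+, and 2 higher and 5 lower in monoculture EpCAM-, beside 16.4% higher and 34.9% lower of all genes in EpCAM+ and 32.4% and 30.3% in EpCAM-. In EpCAM- cells, Tll1, a relative of Bmp1, was lower in monoculture with 7.09 ± 0.0056 against 22.4 ± 0.271 in coculture (-1.53), Adamts14 was lower too (-1.44), and Adamts2, a procollagen peptidase, was higher (1.50).

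The 11 lysyl and prolyl hydroxylases, their partners and the transglutaminase Tgm2 were lower in EpCAM+ cells of both cultures, 9 of them by at least 2-fold in each, beside 12.6% of all genes lower at that size in monoculture and 10.1% in coculture, with medians of -2.18 in monoculture and -2.19 in coculture. P4ha1, a prolyl hydroxylase subunit, changed most (-3.80 in both). Plod2, the lysyl hydroxylase of collagen telopeptides, was at 55.9 ± 0.251 in EpCAM+ and 65.6 ± 0.528 in EpCAM- of monoculture, a small difference beside those of the lysyl oxidases. Between the cultures 3 of the 11 were higher and 4 lower in monoculture EpCAM+, and 6 higher and 3 lower in monoculture EpCAM-, beside 16.4% higher and 34.9% lower of all genes in EpCAM+ and 32.4% and 30.3% in EpCAM-. In EpCAM- cells, P4ha3 (0.73) and Plod1 (0.58) were higher and Tgm2 (-0.44) and Plod2 (-0.35) lower.
Of 10 elastin-degrading proteases 6 were tested. In EpCAM+ against EpCAM- 1 of the 6 was higher and 5 lower in monoculture, and 6 lower in coculture, beside 55.4% higher and 32.4% lower of all genes in monoculture and 59.2% and 28% in coculture. Cathepsin K (Ctsk) was at 0.114 ± 0.0164 in EpCAM+ and 48.0 ± 0.661 in EpCAM- of monoculture (-5.46), and the gelatinase Mmp2 at 0.0845 ± 0.0659 in EpCAM+ and 44.7 ± 0.552 in EpCAM- (-5.40). Between the cultures 2 were higher and 4 lower in monoculture EpCAM+, and 3 higher and 2 lower in monoculture EpCAM-, beside 16.4% higher and 34.9% lower of all genes in EpCAM+ and 32.4% and 30.3% in EpCAM-. Mmp9, a gelatinase, was at 0.103 ± 0.00463 in monoculture EpCAM- and 7.52 ± 0.394 in coculture EpCAM- (-2.95). Elane and Ctss, the neutrophil elastase and cathepsin S genes, were at or near 0, and Mmp12 stayed below 1 FPKM.
Of 8 integrin genes that receive elastic fibre proteins 7 were tested, with 3 higher and 4 lower in EpCAM+ in each culture, beside 55.4% higher and 32.4% lower of all genes in monoculture and 59.2% and 28% in coculture. Between the cultures 3 of the 7 were higher and 2 lower in monoculture EpCAM+, and 2 higher and 3 lower in monoculture EpCAM-, beside 16.4% higher and 34.9% lower of all genes in EpCAM+ and 32.4% and 30.3% in EpCAM-. Itgb3 (3.20 in monoculture, 2.89 in coculture) and Itgb8 (2.80 and 3.15) were higher in EpCAM+, and Itga5, the fibronectin receptor subunit, was lower (-3.88 and -4.64). In EpCAM- cells Itga5 was at 134 ± 0.816 in monoculture and 257 ± 1.76 in coculture (-0.94).

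**Figure D5:**
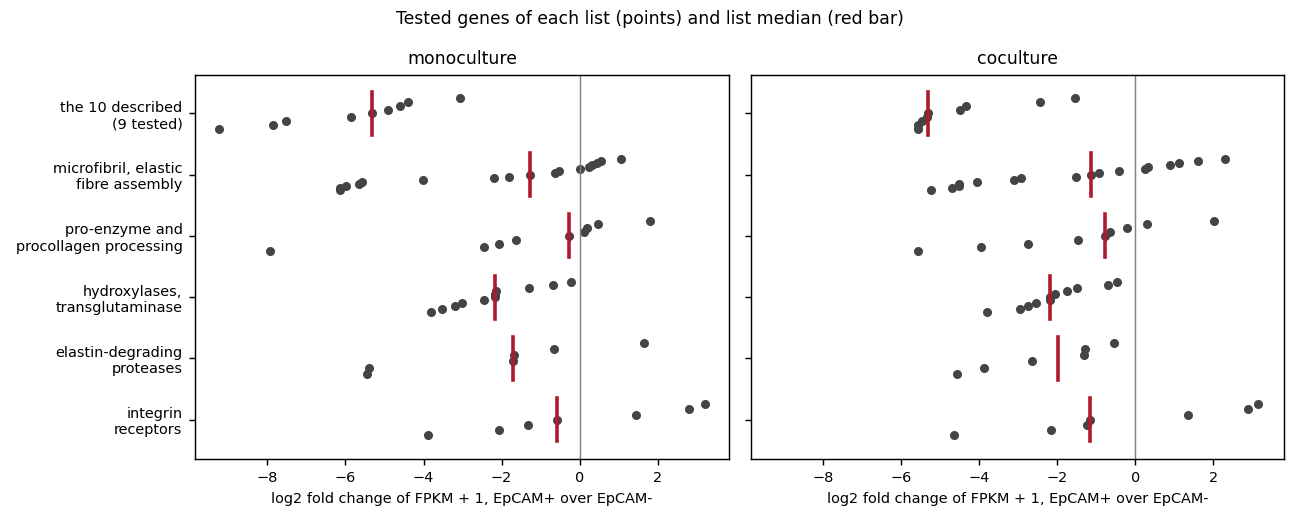
Log2 fold change of FPKM + 1, EpCAM+ over EpCAM-, for the tested genes of each list (points) with the list median (red bar), in monoculture (left) and coculture (right). The 9 tested lysyl oxidase and elastic fibre genes have medians of -5.32 and -5.31, further below 0 than the hydroxylases at -2.18 and -2.19.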

How the data were processed

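The 10 genes and the lists were chosen with earlier results of these data known. The deposited files give FPKM per gene, as the authors computed them, 1 file per library. Tools listed in the submitters' processing notes, with no version, are edgeR, HTSeq, SAMtools, HISAT2, cutadapt and FastQC, and the build is mm10; the annotation used, strand and scaling between libraries are not given in those sources. Read counts are unknown, which leaves the precision of low values unknown too.

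Testing was limited to the 12012 genes that reached 1 FPKM in 2 or more of the 8 libraries. Values were transformed to log2(FPKM + 1), with a pseudocount of 1, which understates changes of low genes. They were fitted with limma 3.58.1 (R 4.3.3) as means of the 4 groups, with 4 residual degrees of freedom, eBayes with trend and Benjamini-Hochberg adjustment over all genes tested. The test was checked on simulated data. Python 3.11.15 with pandas 2.3.3, NumPy 2.4.6 and matplotlib 3.10.9 made the tables and figures. Relative depth is the ratio at which values under 0.3 FPKM pile up between libraries. Named were the 10 genes, up to 4 called genes per list and comparison with the largest changes (mean of 5 FPKM or above in the higher group), and the 3 nearest genes by pattern, of which 2 are not reported here. Added after their values were seen were Ltbp1, Ltbp3, the levels of Bmp1 and Plod2 by fraction, and the companion genes named at or below 1 FPKM. For the subtraction, the share of an EpCAM+ library was the median, over all 15 fibroblast markers, of its FPKM divided by the EpCAM- mean of the same culture. That share of each gene's EpCAM- mean was removed, and values below 0 were set to 0. Alternatives were other pseudocounts, filters and scalings, eBayes without trend or robust, a replicate block, only the 4 libraries compared, the subtraction, and each library left out. Protein sequences were not used here.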

Additional observations from a re-analysis of the deposited data

Results flagged for a closer look

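The difference between monoculture and coculture was not the same in EpCAM+ and EpCAM- cells for 7 genes, by limma's interaction test over all 12012 genes, in which 39.2% of genes were called negative. The interaction was -3.66 for Lox, with -2.63 in EpCAM+ and 1.03 in EpCAM- cells (adjusted p = 1.33e-09). It was -2.86 for Fbln5, with -1.54 in EpCAM+ and 1.32 in EpCAM- cells (adjusted p = 5.26e-09). For Fbln2 it was -2.29 (adjusted p = 3.89e-09) and for Fbn1 -2.07 (adjusted p = 1.45e-07). Smaller ones were those of Efemp2 (-0.63, adjusted p = 2.92e-06), Loxl4 (-0.58, adjusted p = 1.29e-04) and Loxl1 (-0.54, adjusted p = 3.22e-05). In 13 of 14 fibroblast markers the interaction was negative too, with a list median of -2.31. After subtraction of the median marker percentage, it was -2.18 for Lox, -2.82 for Fbln5, -0.37 for Fbln2, -0.47 for Fbn1 and -0.51 for Efemp2. These were past the threshold, that of Fbln2 only just (adjusted p = 0.0466, limma). That of Loxl4 (-0.04) no longer passed, and that of Loxl1 turned to 0.98. In coculture the percentages of Lox, Loxl1, Fbln2 and Fbn1 lay within the range of single markers. Their values after the subtraction therefore depend on the percentage taken.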

How the results depend on the processing

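Of 891 values of the 9 genes under 20 alternatives, 871 kept their direction and their side of the threshold. The filters, the eBayes settings, the replicate block and the fit of only the 4 libraries compared could not move a log2 fold change. Leaving out a library of a group not compared could not either. The count is therefore no measure of how firm the results are. With the fibroblast marker share subtracted, the change in EpCAM+ cells turned to 1.22 for Loxl1, 0.37 for Loxl2 and 0.56 for Loxl3, 3 of the 9 genes were past 2-fold there against 5 without it, and the interaction turned to 0.98 for Loxl1 and 0.54 for Loxl3 and reached 1.65 for Loxl2. Under that subtraction the falls of Loxl4 (-0.07), Fbln2 (-0.17) and Efemp2 (-0.03) in EpCAM+ cells, the rise of Fbln2 in EpCAM- cells (0.21) and the interaction of Loxl4 (-0.04) no longer passed. Under quantile normalization Loxl3 turned to 0.0735 in EpCAM+ and -0.0172 in EpCAM- cells and 0.0907 in the interaction, none of them called, and the interaction of Loxl2 passed at 0.20. With a constant sum Loxl3 in EpCAM- cells was -0.00446. Leaving out each library in turn gave -0.000565 to 0.0375 for Loxl3 and -0.0655 to 0.00178 for Loxl4 in EpCAM- cells, neither called, with the sign turned without monoculture EpCAM- replicate 1 and without coculture EpCAM- replicate 2. The interaction of Loxl2 turned to -0.56 and -0.235 with pseudocounts of 0.1 and 0.5, against 0.03 with 1. Loxl2 had a mean of 0.913 FPKM in monoculture EpCAM+, and the pseudocount of 1 shrinks changes near 1 FPKM. The cause of the other changes listed here was not tested. With a pseudocount of 0.1, genes past 2-fold numbered 562 against 233 (EpCAM+ cells, monoculture against coculture), 910 against 543 (EpCAM- cells) and 1613 against 972 (interaction). Over the alternatives, 3 to 6 of the 9 genes were past 2-fold between the cultures in EpCAM+ cells, where Loxl4 ran from -1.07 to -0.07. Leaving out each library in turn kept the numbers of the 9 genes called in each comparison.

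No shared effect of the replicate number was seen: the differences between replicates 1 and 2 correlated at -0.073 to 0.041 between groups. This cannot show whether libraries of the same number came from the same culture, which the labels do not state. With the replicate block, genes called numbered 10512, 10437, 5998, 7448 and 7720, against 10554, 10473, 6170, 7527 and 7826, in the order EpCAM+ against EpCAM- in monoculture and in coculture, monoculture against coculture in EpCAM+ and in EpCAM-, and interaction. Depth limits are unknown, because FPKM holds no counts, and Lox, Loxl2, Loxl4 and Fbn1 were below 1 FPKM in monoculture EpCAM+.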
